A study of Mus musculus with 48 samples.

Results

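The genes described here are 10 readouts of the unfolded protein response and of the integrated stress response: Hspa5, Dnajb9, Sdf2l1, Ficd, Herpud1, Xbp1, Atf4, Ddit3, Atf3 and Trib3. They are the rows of the read count table whose Ensembl identifier maps to these symbols, 10 of 38293 genes, and all 10 were found. The table covers 48 RNA sequencing libraries from male C57/Bl6 mice aged 9 weeks that were fasted for 6 h and then given an intraperitoneal injection of 10 µL per g. The libraries come from the dorsal vagal complex (DVC), the hindbrain entry point of vagal signals from the gut, and from the mediobasal hypothalamus (MBH), which holds the arcuate neurons that govern feeding. In each region 12 libraries hold RNA recovered with ribosomes through an antibody to phosphorylated ribosomal protein S6 (IP), a mark of recently active cells, and 12 hold total RNA from an aliquot of the cleared homogenate (input). The mice had received AC3174, whose dose was 1 µg/kg, AC170222, at a listed dose of 2.5 µg/kg, the combination of both agents or saline, with 3 libraries for each treatment, region and kind of RNA. The title of the study names a synergy of GLP-1 and CCK drugs on feeding. The labels also spell the second agent AC710222 and list other doses, so its name and dose in these libraries are not certain, and the sources used here do not give the doses within the combination.

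The unfolded protein response is set off when misfolded proteins collect in the endoplasmic reticulum (ER). Its sensors IRE1, ATF6 and PERK lead to the spliced form of XBP1, to cleaved ATF6 and to phosphorylated eIF2α, which raise chaperones, components of protein disposal and stress transcription factors. The integrated stress response is the eIF2α branch, which other kinases share: it slows translation in general while the mRNA of the transcription factor ATF4 is translated more, through short reading frames upstream of its coding sequence. In the hypothalamus, ER stress has been studied in connection with obesity and with resistance to leptin.

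Among the members, Hspa5 (chr2:34771970-34777547, GRCm38) encodes BiP, the main ER chaperone of the Hsp70 family. Dnajb9 (chr12:44205559-44210326) encodes ERdj4, a co-chaperone of BiP, and Sdf2l1 (chr16:17130138-17132383) encodes an ER protein that assists the BiP chaperone cycle. Ficd (chr5:113735803-113740600) encodes the enzyme that adds AMP to BiP and removes it. Herpud1 (chr8:94386438-94395377) belongs to the membrane complex that sends ER proteins to the proteasome. Xbp1 (chr11:5520659-5525893) encodes the transcription factor that IRE1 activates by splicing its mRNA, a step that counts per gene do not resolve. Atf4 (chr15:80255184-80257541), Ddit3 (chr10:127290774-127296288, the factor CHOP) and Atf3 (chr1:191170296-191218039) encode the transcription factors of the eIF2α branch, and Trib3 (chr2:152337422-152344032) encodes a pseudokinase that CHOP and ATF4 induce. The exons of Ddit3 overlap those of Mars and Gm4189 over 3.97% and 0.759% of their length and those of Dnajb9 overlap Mir5627 over 0.549%. The libraries keep no strand, so reads there cannot be assigned to a single gene. Another gene model named Ddit3, on the same strand and without counts of its own here, overlaps 6.13% of the Ddit3 exons.

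Stretches of 3 promoters are shown because they hold the exact letters of the response elements for which this group of genes is known. All 10 genes matched a window of the RefSeq promoter table (GRCm38.p6, 250 bases before the start and 50 after it), and both strands were searched. The ER stress response element (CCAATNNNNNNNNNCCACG) was present in 0.119% of 32851 windows and in 1 of the 10 members, Hspa5, where it begins 65 bases before the start. The second form of this element (ATTGG and CCACG with 1 base between them) was present in 0.0365% of windows and in 1 member, Herpud1, 52 bases before the start. The core of the element bound by ATF4 and CCAAT/enhancer-binding proteins (TGATGNAA) was present in 3.97% of windows and in 3 members, Atf3, Herpud1 and Trib3. The 150 bases before the start follow, 5′ to 3′ on the strand of the gene, with the fixed letters of these elements in capitals; TTgCATCA is TGATGNAA read on the other strand.
Hspa5 (chr2:34771940-34772089, plus strand): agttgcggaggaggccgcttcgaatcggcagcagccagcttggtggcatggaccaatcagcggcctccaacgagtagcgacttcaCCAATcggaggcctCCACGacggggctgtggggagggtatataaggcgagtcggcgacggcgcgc
Herpud1 (chr8:94386279-94386428, plus strand): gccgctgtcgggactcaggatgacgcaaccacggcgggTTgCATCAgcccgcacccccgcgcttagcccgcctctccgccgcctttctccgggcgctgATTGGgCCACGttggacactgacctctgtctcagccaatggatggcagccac
Atf3 (chr1:191183334-191183483, minus strand): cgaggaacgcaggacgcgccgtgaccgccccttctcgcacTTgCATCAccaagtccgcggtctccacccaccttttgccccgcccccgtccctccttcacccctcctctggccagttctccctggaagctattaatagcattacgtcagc
The fixed parts of the first element were also searched singly: CCAAT was in 8 member windows and 37.4% of all windows, and CCACG was in 5 member windows and 32.8% of all windows. The XBP1-type core TGACGTGG (0.676% of windows) and the cyclic AMP element TGACGTCA (1.79%) matched no member window. A match describes the letters and is no evidence of binding in these tissues.

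Total counts per DVC library ran from 102116189 to 191252522 for IP and from 29492622 to 95079227 for input. Per MBH library they ran from 21782798 to 73940674 for IP and from 36542586 to 80084056 for input. Levels are given as CPM, read counts scaled to library size, on TMM-scaled library sizes. Differences are log2 estimates from edgeR's quasi-likelihood test, which itself gives no SE. The SE printed was derived as the absolute estimate divided by the square root of the test's F value, so it is approximate. A gene was called at a Benjamini-Hochberg adjusted p under 0.05 over all genes tested. The labels do not state that libraries of a group come from separate animals, so p-values measure the spread between these libraries, and in bulk tissue fewer cells and less RNA per cell cannot be told apart. No molecular identifiers were used, so floors cover counting error only. At least 1 count was found for 9925 to 16796 genes per DVC IP and 16569 to 18200 genes per DVC input, and for 6285 to 15913 genes per MBH IP and 12853 to 18657 genes per MBH input. Fewer than 12000 genes were detected in 6 libraries, 1 of DVC IP and 5 of MBH IP, and MBH input saline replicate 2 had the fewest genes of the inputs. The region labels matched their markers: the DVC markers Hoxa5, Hoxb5, Hoxc4 and Dbh were called higher, and the MBH markers Nkx2-1, Agrp, Pomc, Npy and Ghrh lower, in DVC than in MBH inputs.

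All 10 genes were detected in both regions, at levels that spanned from steady to sporadic. Per kilobase of merged exons, the order in DVC inputs was Atf4 (47.8 ± 7.83 CPM per kb, SD, n = 12), Herpud1 (35.3 ± 6.91), Hspa5 (33.9 ± 4.93), Xbp1 (26.2 ± 6.36), Ddit3 (20.0 ± 2.85), Sdf2l1 (13.1 ± 5.09), Dnajb9 (8.23 ± 2.37), Ficd (3.90 ± 1.95), Atf3 (1.19 ± 1.44) and Trib3 (0.437 ± 1.09). The ranges of each neighbouring pair in this order overlapped, although Dnajb9 exceeded Ficd in all 12 libraries. In MBH inputs Atf4 was also first (43.3 ± 10.5 CPM per kb) and Trib3 last (0.590 ± 0.690), while Ddit3 (27.9 ± 7.24) stood above Hspa5 (24.2 ± 9.65) in 7 of 12 libraries. Atf4 and Ddit3 had counts in all 48 libraries, Hspa5 and Xbp1 in 46, Sdf2l1 and Herpud1 in 44, Dnajb9 in 39, Ficd in 34, Atf3 in 24 and Trib3 in 16. Absent counts lay mostly in the IP: a median of 2.5 of the 10 members was at 0 per DVC IP library against 1 per DVC input library, and 3 per MBH IP library against 1 per MBH input library. One MBH IP library, AC3174 replicate 3, had 8 of the 10 members at 0 and counts only for Atf4 and Ddit3.

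**Figure D1:**
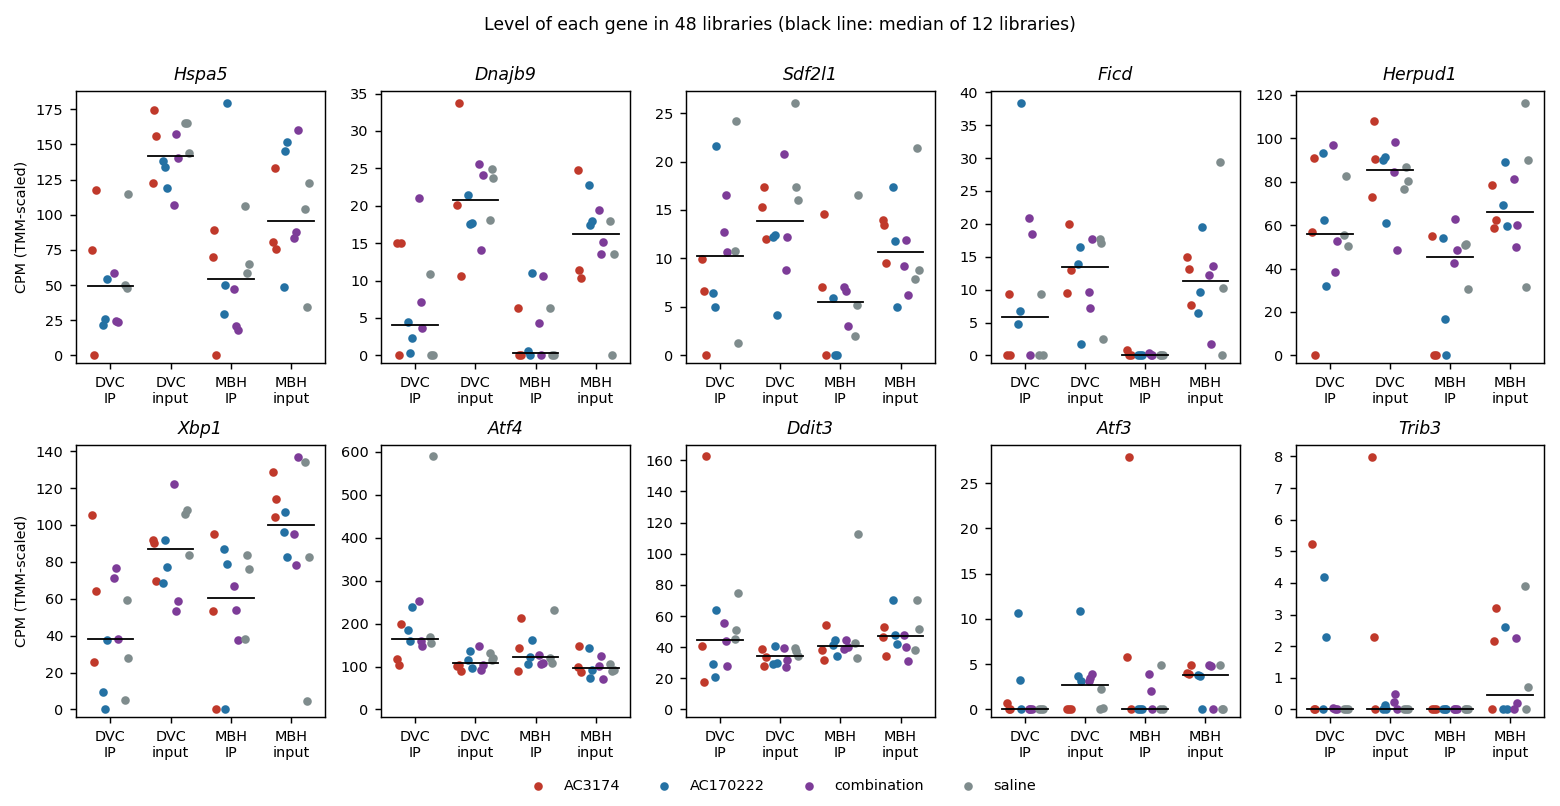
CPM (TMM-scaled, linear axis from 0) of each gene in the 48 libraries, grouped by region and kind of RNA and coloured by treatment, with 3 points per group and a black line at the median of 12 libraries. Atf4 and Ddit3 have counts in every library, 10 of 12 DVC IP libraries lie below every DVC input for Hspa5, and Atf3 and Trib3 are at 0 in many libraries.

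In the DVC, Atf4 was higher in the pS6 IP than in the input, while most ER chaperone and disposal genes had lower means in the IP without passing the test. Atf4 ranged from 103 to 591 CPM in the 12 IP libraries, with a median of 165, against 89.3 to 148 CPM in the 12 input libraries, with a median of 109. It lay above the input of the same number in 12 of 12 cases, and 9 IP libraries lay above every input library, so the groups overlapped in 3 libraries. The difference was 0.75 ± 0.21 on the log2 scale, a fold of 1.68 (edgeR adjusted p = 0.0162). Atf4 was 1 of 10 members called higher, where 6.8% of 18465 genes were called higher. Saline replicate 3 held the highest IP value, 591 CPM; without the IP and input of that replicate the difference was 0.49 (adjusted p = 0.0291). Leaving out each replicate in turn gave 0.49 to 0.91, called in 12 of 12 fits, whereas limma-voom gave 0.67 with an adjusted p of 0.213. With libraries of the same number paired in the fit it was 0.64 and not called (edgeR adjusted p = 0.0849).

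Hspa5 showed the opposite position in the same libraries. Its DVC IP libraries ranged from 0 to 118 CPM with a median of 49.2, against 107 to 175 CPM with a median of 142 in the inputs. All 12 IP libraries were below the input of their number and 10 were below every input library. The difference was -1.65 ± 0.61 with an edgeR adjusted p of 0.0628, so it was not called. Without AC3174 replicate 2, whose IP library had 0 Hspa5 counts, it was -1.38 (adjusted p = 0.00135), and DESeq2 and limma-voom called it at adjusted p-values of 0.0105 and 0.00269. In the other 11 of 12 edgeR fits that left out a replicate Hspa5 was not called, with adjusted p-values of up to 0.169.

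Xbp1 ranged from 0.153 to 105 CPM in DVC IP, with a median of 38.1, against 53.4 to 122 CPM in DVC input, with a median of 87.0. In 7 cases the IP library lay below every input library, and the difference was -1.27 ± 0.50 (edgeR adjusted p = 0.0818). Dnajb9 ranged from 0 to 21.02 CPM in IP, with a median of 4.06, against 10.7 to 33.7 CPM in input, with a median of 20.8, a difference of -2.04 ± 1.03 (adjusted p = 0.185). Both passed the threshold by DESeq2 (0.0198 and 0.0499) and by limma-voom (0.00364 and 0.00505). In edgeR each was called in 1 of 12 fits that left out a replicate. These were Xbp1 without AC170222 replicate 3 (-1.62, adjusted p = 0.0348) and Dnajb9 without saline replicate 1 (-4.83, adjusted p = 0.00405). In the other 11 fits of each, adjusted p-values reached 0.224 for Xbp1 and 0.357 for Dnajb9. The other members had wide errors: Sdf2l1 differed by -0.60 ± 0.67, Herpud1 by -0.57 ± 0.58, Ficd by -0.93 ± 1.23 and Ddit3 by 0.49 ± 0.30, with adjusted p-values of 0.301 or more. Ddit3 averaged 52.8 ± 38.6 CPM in IP and 34.2 ± 4.88 CPM in input. It exceeded every input in 7 IP libraries and lay below every input in 2. No difference could be estimated for Atf3, at 0 in 9 IP and 4 input libraries, or for Trib3, at 0 in 8 IP and 7 input libraries. Over the 8 members with an estimate the median difference was -0.77, with 2 positive and 6 negative, against a median of -0.37 over all genes tested, 38.3% of which were positive. With RLE scaling the median over all genes was -0.47.

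**Figure D2:**
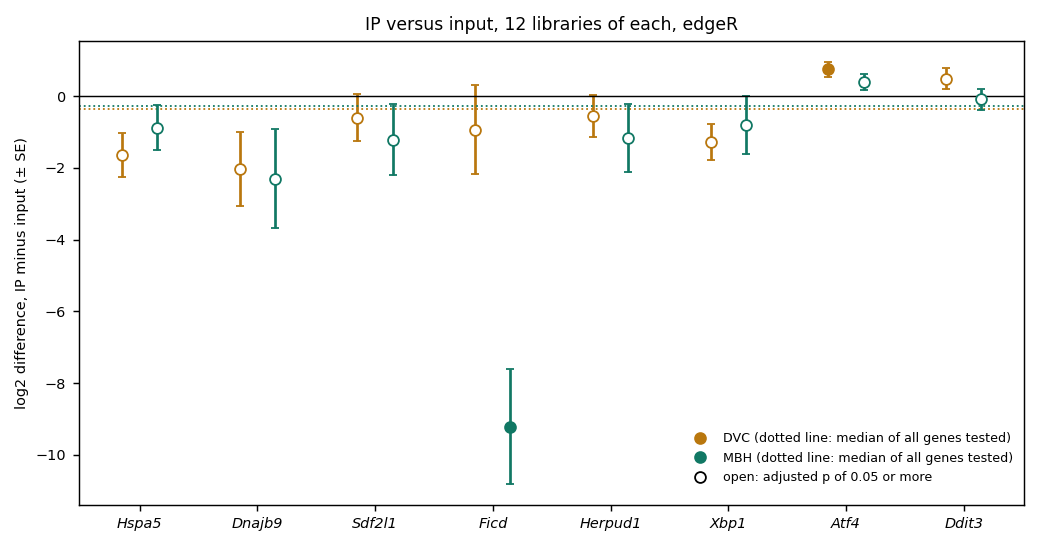
Log2 difference between IP and input (edgeR estimate ± SE, 12 libraries of each) for the 8 genes with a printed estimate in both regions, DVC left of MBH. Points are filled where the adjusted p was under 0.05, and dotted lines mark the median of all genes tested. Atf4 in DVC (0.75) and Ficd in MBH (-9.21) are the filled points.

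Among further genes of the pathway, the shares called in DVC IP were near those of all genes. Of 72 such genes in 5 lists, 71 were tested, and 6 were called higher and 12 lower, where 6.8% and 13.6% of all genes were called higher and lower. Their median difference was -1.09, against -0.37 over all genes. Without AC170222 replicate 1, and likewise without combination replicate 3, 11 of them were called. Among regulators of eIF2, 2 of 11 were higher: Eif2s1, the eIF2α subunit itself (181 ± 41.2 CPM in IP and 89.9 ± 21.5 CPM in input, SD, n = 12 each, 0.91 ± 0.16, edgeR adjusted p = 0.000648), and Eif2b4, a subunit of its exchange factor (0.69 ± 0.20, 0.0175). Of 23 tested targets of ATF4 and CHOP, 3 were higher and 2 lower. The 3 were tRNA synthetases: Nars (1143 ± 257 CPM in IP and 616 ± 59.6 CPM in input, 0.79 ± 0.10, 4.66e-05), Wars (0.78 ± 0.17, 0.0035) and Sars (0.53 ± 0.13, 0.00714). The synthetase Gars (-0.94 ± 0.25, 0.0136) and the amino acid transporter Slc7a5 (-5.85 ± 1.22, 0.00345, 6 of 12 IP libraries at 0) were the 2 lower ones.

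Beside the counts that follow, 13.6% of all genes were called lower and 6.8% higher in DVC IP. Of 16 ER chaperones and foldases, 4 were lower and none higher, with a median of -1.54 over the list. They included Hsp90b1, the ER member of the Hsp90 family (57.9 ± 35.1 CPM in IP and 124 ± 24.3 CPM in input, -1.22 ± 0.31, edgeR adjusted p = 0.00957), and the oxidase Ero1lb (4.01 ± 7.89 CPM in IP and 12.5 ± 5.06 CPM in input, 8 of 12 IP libraries at 0, 0.00163). Of 12 genes of ER-associated degradation 3 were lower, namely Edem1, Edem3 and Derl2 (adjusted p = 0.00288, 0.0134 and 0.0159), and 1 was higher, Vcp, the ATPase that draws proteins out of the membrane (590 ± 288 CPM in IP and 301 ± 40.3 CPM in input, 0.86 ± 0.23, 0.0133). Of 9 sensors and processing proteases 3 were lower, among them Creb3l1, an ER-bound transcription factor that was at 0 in 10 of 12 IP libraries (0.0215). The list medians were -2.19 for sensors, -1.54 for chaperones, -1.42 for degradation, -0.29 for ATF4 and CHOP targets and 0.27 for eIF2 regulators. The 3 called sensors were at low levels: Creb3l1, Creb3l2 and Mbtps2 averaged 1.88, 5.63 and 4.47 CPM in input. Creb3l2 was at 0 in 6 of 12 IP libraries, and Mbtps2 in none. The part of low levels in the order of these medians was not tested.

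Markers of cell types differed between the same libraries, where 13.6% of all genes were called lower and 6.8% higher. In DVC IP, 5 of 6 microglial markers were called lower, with a summed level of 0 to 46.3 CPM in IP and 47.2 to 84.6 CPM in input, and all 6 were at 0 in 3 IP libraries. Of 6 oligodendrocyte markers 4 were lower (1592 to 7104 CPM in IP and 5963 to 8901 CPM in input), and 3 of 5 endothelial markers were lower (0 to 127 CPM in IP and 1.82 to 32.2 CPM in input). Of 6 neuronal markers 3 were higher (12663 to 29207 CPM in IP and 9499 to 11242 CPM in input), 1 of 6 astrocyte markers was higher and 2 of 5 red blood cell markers were higher. None of 4 choroid plexus markers and none of 4 markers of ependymal cells and tanycytes was called. The part of these cell types in the differences of the stress genes was not tested.

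In the MBH, Ficd was nearly absent from the IP. It was at 0 in 10 of 12 IP libraries and reached 0.761 and 0.312 CPM in the other 2, AC3174 replicate 1 and combination replicate 1, with 36 counts in all. The 12 input libraries had 0.0361 to 29.3 CPM, with a median of 11.3 and 8940 counts in all. All 12 IP libraries lay below the input of their number, and the only input inside the range of the IP was saline replicate 2. Ficd averaged 0.0894 ± 0.230 CPM in IP and 11.6 ± 7.84 CPM in input (SD, n = 12 each). The fitted difference was -9.21 ± 1.59 (edgeR adjusted p = 0.0196), a value that depends on the prior count of the fit because 2 treatment groups were wholly at 0. Ficd was 1 of 10 members called lower, where 0.292% of 17461 genes were called lower and 0.16% higher. Without the 5 MBH IP libraries of under 12000 genes the call held (-8.81 ± 2.02, adjusted p = 0.0427), but in 8 of 12 fits that left out 1 replicate it was lost, with adjusted p-values of up to 0.117. It was also lost with libraries of the same number paired in the fit (-10.6, edgeR adjusted p = 0.347).

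Trib3 was at 0 in all 12 MBH IP libraries, against 0 to 3.89 CPM in MBH input, where 7 libraries had counts. Its input mean of 1.25 CPM was 216 times a floor of 3 counts over the IP group (0.00581 CPM). That floor covers counting error only, so it sets no bound beyond the spread between libraries. The difference was not called (edgeR adjusted p = 0.0997, and 0.236 without the libraries of under 12000 genes). Hspa5 ranged from 0 to 179 CPM in MBH IP, with a median of 54.4, against 34.1 to 160 CPM in MBH input, with a median of 95.7. Its difference of -0.88 ± 0.62 was not called (adjusted p = 0.803). Atf4 ranged from 89.7 to 232 CPM in IP and from 70.2 to 148 CPM in input, a difference of 0.38 ± 0.22 (0.63). The remaining members differed by -2.37 to -0.09 with adjusted p-values of 0.658 or more, and the sign turned for Ddit3 in 4 alternatives (0.04 with RLE scaling) and for Atf3 in 1 (0.14 without saline replicate 1). Herpud1 was called by limma-voom (-3.69, 0.0411) and in 1 of 12 edgeR fits that left out a replicate, that without AC3174 replicate 1 (-4.38, 0.0149). The median over the 10 members was -1.20, with 9 negative, against -0.28 over all genes tested. None of the 71 further pathway genes tested was called by edgeR in this comparison, while DESeq2 called 6, limma-voom 5 and edgeR without AC3174 replicate 1 also 5. No cell type marker was called between MBH IP and MBH input; summed microglial markers ran from 0 to 179.7 CPM in IP and from 20.5 to 59.4 CPM in input.

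The region difference of the IP-to-input change was tested directly. Ficd was the only member called: in DVC it had 0 to 38.3 CPM in IP, with a median of 5.76 and 4 libraries at 0, against 1.71 to 20.0 CPM in input, unlike its MBH values. The IP-to-input difference was 8.61 ± 2.00 log2 units higher in DVC than in MBH (edgeR adjusted p = 0.00916), where 2.33% of 19416 genes were called higher and 2.06% lower. The call was lost without replicate 2 of saline (adjusted p = 1.0), whose DVC IP library is the only one of its group with Ficd counts, and without replicate 2 of AC3174 (0.0815). The difference between regions was 0.42 ± 0.29 for Atf4 (0.705), and for Hspa5 it was -0.71 ± 0.89 (1.0), so neither the call of Atf4 in DVC nor its lack in MBH shows that the regions differ. Of 71 further pathway genes tested, Creb3l1 alone was called (-7.12 ± 2.10, edgeR adjusted p = 0.046), and it was at 0 in 10 of 12 DVC IP libraries. No further gene was called without the filter, with the replicate block or without MBH input saline replicate 2. Between the IP libraries alone Ficd was higher in DVC, at 9.00 ± 11.8 CPM in DVC and 0.0894 ± 0.230 CPM in MBH (8.75 ± 2.42, adjusted p = 0.0431). There 3.11% of 17230 genes were called higher and 2.79% lower, and the call was lost in 11 of 12 fits that left out 1 replicate.

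Between the total RNA of the 2 regions, Ddit3 was lower in DVC. It ranged from 27.5 to 40.9 CPM in the 12 DVC inputs, with a median of 34.1, against 31.1 to 70.3 CPM in the 12 MBH inputs, with a median of 47.1. The ranges overlapped, and the highest MBH values, 70.3 and 70.0 CPM, came from saline replicate 2 and AC170222 replicate 1. The difference was -0.46 ± 0.14, a fold of 0.729 (edgeR adjusted p = 0.027), in a comparison where 10.2% of 18576 genes were called lower and 11.7% higher. It held without MBH input saline replicate 2 (-0.39 ± 0.13, 0.0351) but not without the filter on low counts (0.053), by limma-voom (0.0553) or in 5 of 12 fits that left out 1 replicate (up to 0.0978). With libraries of the same treatment and number paired across regions it was -0.43 and not called (edgeR adjusted p = 0.0868).

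Hspa5 ranged from 107 to 175 CPM in DVC inputs, with a median of 142, against 34.1 to 160 CPM in MBH inputs, with a median of 95.7. Its difference of 0.51 ± 0.21 missed the threshold by edgeR (adjusted p = 0.0847) and passed it by DESeq2 (0.0278) and limma-voom (0.0429). The ranges overlapped, with the 3 highest DVC values above every MBH value. The differences of the other well measured members were 0.24 ± 0.18 for Herpud1, 0.16 ± 0.13 for Atf4 and -0.16 ± 0.30 for Xbp1, with adjusted p-values of 0.383 or more. The median over the 10 members was 0.13, against 0.10 over all genes tested. Atf3 averaged 2.56 ± 3.09 CPM in DVC inputs and 2.91 ± 2.19 CPM in MBH inputs (SD, n = 12 each). Its difference of -2.69 ± 1.23 was not called (edgeR adjusted p = 0.134). Leaving out each replicate gave -3.66 to -0.12, called only without saline replicate 2 (-3.66, adjusted p = 0.0472). Trib3 averaged 0.929 ± 2.31 and 1.25 ± 1.47 CPM (-3.60 ± 1.53, adjusted p = 0.107). DESeq2 called both lower. Atf3 was at 0 in all 3 DVC inputs after AC3174, and Trib3 in all 3 after saline. The sizes of these log2 estimates are therefore uncertain.

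Of the 71 further pathway genes tested in this comparison, 10 were called higher in DVC and 2 lower, where 11.7% of all genes were higher and 10.2% lower, so the share of higher calls was near that of all genes. Without MBH input saline replicate 2 the number called was 20. The 10 higher ones included the calcium-binding chaperones Calr (94.2 ± 18.2 CPM in DVC and 50.8 ± 17.5 CPM in MBH, SD, n = 12 each, 0.98 ± 0.14, edgeR adjusted p = 3.7e-05) and Canx (0.73 ± 0.17, 0.00383), and Sel1l, the scaffold of the degradation ligase (87.0 ± 26.1 CPM in DVC and 42.4 ± 17.3 CPM in MBH, 1.06 ± 0.25, 0.00422). Among them were 4 ATF4 targets: Psat1 and Phgdh, enzymes of serine synthesis (0.94 ± 0.14 and 0.61 ± 0.14, adjusted p = 4.18e-05 and 0.00428), the transporter subunit Slc3a2 (1.17 ± 0.18, 0.000102) and the folate enzyme Mthfd2 (0.57 ± 0.16, 0.0121). The haem-sensing eIF2 kinase Eif2ak1 was higher (0.56 ± 0.17, 0.0248), while Eif2s1 (-0.57 ± 0.15, 0.00912) and Eif2b2 (-0.33 ± 0.11, 0.0465) were lower. In the same inputs all 6 oligodendrocyte markers (5963 to 8901 CPM in DVC and 1406 to 3204 CPM in MBH), all 6 astrocyte markers (3095 to 4447 CPM in DVC and 1373 to 1892 CPM in MBH) and 5 of 6 neuronal markers (9499 to 11242 CPM in DVC and 4268 to 6032 CPM in MBH) were higher in DVC. Their part in the differences was not tested. In the IP only Nars was called among the further genes (1.03 ± 0.25, adjusted p = 0.0181).

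No member was called after AC3174, AC170222 or the combination against saline, in either region or kind of RNA, and no departure from additivity of the 2 agents was called. These 16 comparisons gave 152 tests of members, with a lowest edgeR adjusted p of 0.677. In each of them 0.0% of all genes was called: the genes tested numbered 15815 for DVC IP and 17477 for DVC input, and 14766 for MBH IP and 16622 for MBH input. At an unadjusted p under 0.05 stood 127 to 1427 genes per comparison, and DESeq2 called 158 to 1144 and limma-voom 0 to 20. Of the members, 10 results had an unadjusted p under 0.05, 4 of Atf3 and 6 of Trib3, all in DVC. Trib3 was not tested in MBH IP, where only 127 to 377 of 14766 genes reached that p. In DVC IP 723 to 1041 of 15815 genes did. DESeq2 called 8 member results, 4 of Atf3 and 4 of Trib3, and 0 of the other 8 members, while limma-voom called 0. Of the further pathway genes, 67 were tested in DVC IP, 68 in MBH IP and 71 in the inputs of each region, and edgeR called none.

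In DVC inputs, where the spread was smallest, the data bound the response of the well measured members. Hspa5 had 123, 175 and 156 CPM after AC3174, 138, 134 and 119 CPM after AC170222 and 107, 157 and 141 CPM after the combination, against 165, 165 and 144 CPM after saline. The AC170222 libraries lay below all saline libraries, and the other groups overlapped with saline. The differences from saline were -0.03, -0.25 and -0.20, each with an SE of 0.18. Over Hspa5, Herpud1, Xbp1, Atf4 and Ddit3 the 3 treatments differed from saline by -0.32 to 0.19, with SEs of 0.18 to 0.27.

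Atf4 had 102, 103 and 89.3 CPM after AC3174, 115, 136 and 96.5 CPM after AC170222 and 148, 91.7 and 104 CPM after the combination, against 132, 116 and 119 CPM after saline. The AC3174 libraries lay below all saline libraries (-0.29 ± 0.18, edgeR adjusted p = 1.0). Sdf2l1 had 12.2, 12.4 and 4.19 CPM after AC170222 against 26.0, 17.4 and 16.1 CPM after saline, also without overlap (-1.02 ± 0.48, adjusted p = 1.0). After AC170222, 3 of 10 members did not overlap with saline in DVC input, where 9.26% of all genes did so, and after AC3174 and the combination 1 member each did, where the shares were 9.41% and 9.18%. In DVC IP no member separated from saline, where 8.18%, 9.72% and 11.3% of all genes did so after AC3174, AC170222 and the combination.

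In MBH inputs the same 5 members differed from saline by -0.40 to 0.67, with SEs of 0.31 to 0.76, and no member separated from saline, where 10.4%, 8.92% and 18.2% of all genes did so after AC3174, AC170222 and the combination. Saline replicate 2 stood apart there, with 4.66 CPM of Xbp1 against 134 and 82.6 CPM in the other 2 saline libraries, and with no Dnajb9 count. In the IP, errors were too wide to bound a response: SEs ran from 0.53 to 3.51 in DVC over the 8 members with at least 10 CPM in the inputs, and from 0.57 to 3.58 in MBH over the 7 of them that were tested. Hspa5 in MBH IP had 47.1, 20.6 and 18.1 CPM after the combination against 106, 58.5 and 64.7 CPM after saline, which did not overlap (-1.36 ± 1.72, edgeR adjusted p = 1.0). It was the only member to separate after the combination there, where 7.46% of all genes did so, and none did after AC3174 or AC170222 (6.56% and 6.01%). Ficd and Trib3 did not pass the filter in MBH IP and were not tested there.

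**Figure D3:**
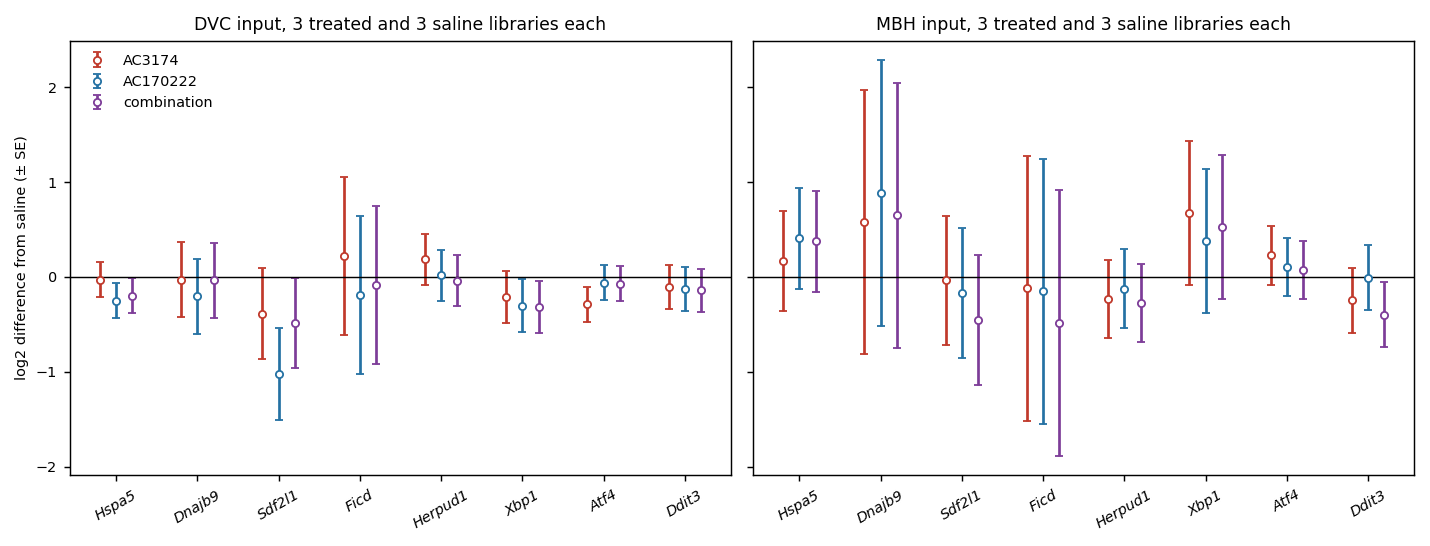
Log2 difference from saline (edgeR estimate ± SE, 3 treated and 3 saline libraries each) of 8 genes in DVC inputs (left) and MBH inputs (right) after AC3174, AC170222 and the combination. All points are open because no adjusted p was under 0.05, and the errors are wider in MBH, most of all for Dnajb9 and Ficd.

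Atf3 and Trib3, the stress factors at the lowest level, were detected sporadically, with counts in 24 and 16 of 48 libraries. EdgeR called neither of them after any treatment. In DVC input, Atf3 had 0, 0 and 0 CPM after AC3174, 3.74, 10.8 and 3.16 CPM after AC170222 and 3.17, 3.52 and 3.90 CPM after the combination, against 0, 2.24 and 0.154 CPM after saline. All 6 libraries with AC170222 were above all 6 without it, yet neither group was called against saline (2.91 ± 1.72 and 2.19 ± 1.67, edgeR adjusted p = 1.0 each). This split was chosen because the values separate, and the share of all genes that separate in this way was not counted. The departure from additivity of Atf3 in DVC input was 7.98 ± 2.63, with an edgeR unadjusted p of 0.0137 and an adjusted p of 0.952. Its size depends on the prior count of the fit, because the AC3174 group was wholly at 0 (-8.70 against saline). The combination libraries themselves lay within the range of AC170222 alone. In DVC IP, Atf3 had 10.6, 3.22 and 0 CPM after AC170222 and 0.716, 0 and 0 CPM after AC3174, and was at 0 in all 3 combination and all 3 saline libraries.

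Trib3 in DVC input had 7.97, 2.28 and 0 CPM after AC3174, 0, 0.157 and 0 CPM after AC170222 and 0.235, 0.503 and 0 CPM after the combination, and was at 0 in all 3 saline libraries. Its mean after AC3174 was 237 times a floor of 3 counts over the saline group (0.0144 CPM), carried by 2 of 3 libraries. This floor too covers counting error only, and Trib3 was not called (edgeR adjusted p = 0.993). In DVC IP it had 5.25, 0 and 0 CPM after AC3174, 0, 4.18 and 2.30 CPM after AC170222 and 0.0406, 0 and 0 CPM after the combination, and again 0 in all 3 saline libraries. Every treated group thus held a library at 0, and no treated group was separate from saline. In MBH input, both genes had counts with and without drug: Trib3 had 0, 2.16 and 3.20 CPM after AC3174 against 3.89, 0 and 0.704 CPM after saline, and Atf3 had 4.01, 3.92 and 4.90 CPM after AC3174 against 4.88, 0 and 0 CPM after saline.

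**Figure D4:**
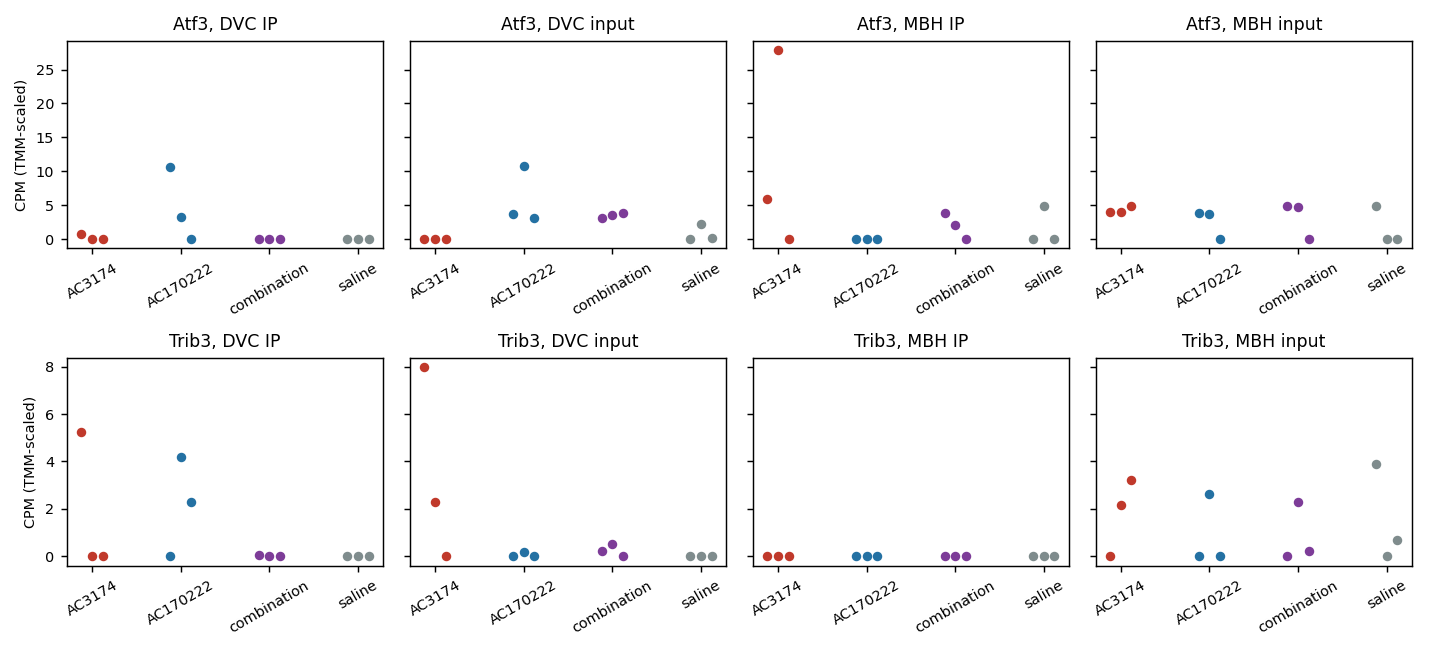
CPM (TMM-scaled, linear axis) of Atf3 (top) and Trib3 (bottom) in each library, by treatment, in DVC IP, DVC input, MBH IP and MBH input. In DVC input the 6 libraries with AC170222 have 3.16 to 10.8 CPM of Atf3 and the 6 without it have 0 to 2.24 CPM, and Trib3 is at 0 in all MBH IP libraries.

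Across the 24 inputs, after the mean of each of the 8 groups was removed, the members fell into sets that varied together; the sets were drawn after the values were seen, so the coefficients are descriptions. Hspa5, Dnajb9, Ficd, Herpud1 and Xbp1 correlated with each other at Pearson r of 0.417 to 0.865 on log2(CPM + 2), and Sdf2l1, Atf4 and Ddit3 at 0.564 to 0.716. Between the sets r ran from -0.625 (Hspa5 with Ddit3) to 0.177 (Dnajb9 with Atf4). Without MBH input saline replicate 2 the first set had r of 0.0856 to 0.712 and the second 0.639 to 0.675. Between the sets r then ran from -0.544 (Hspa5 with Ddit3) to 0.188 (Dnajb9 with Atf4), and its median moved to -0.0542 from -0.317. Dnajb9 with Hspa5, at 0.0856, was then below Dnajb9 with Atf4, so the first set depended in part on that library. The points share libraries, and with them depth and tissue composition. Genes most like a member by the same measure, among 9694 genes of at least 10 CPM, included Tmem63a, Ctsb and Aplp1 for Hspa5 (r = 0.918, 0.884 and 0.880), Med9, Mtmr7 and Jade1 for Xbp1 (0.957, 0.953 and 0.948), Ntrk2, Grk6 and Rwdd1 for Dnajb9 (0.925, 0.920 and 0.914) and Il33, Hlcs and Sox5 for Herpud1 (0.862, 0.852 and 0.849). For Atf4 they were H3f3a, Snrpc and Snrpg (0.802, 0.738 and 0.737), for Ddit3 Gm5564, Phgdh and Tacc1 (0.814, 0.812 and 0.796) and for Ficd Fam135b, Fam213a and Syp (0.867, 0.854 and 0.828). For Sdf2l1 they included Vti1b and Snrpd3 (0.804 and 0.787).

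**Figure D5:**
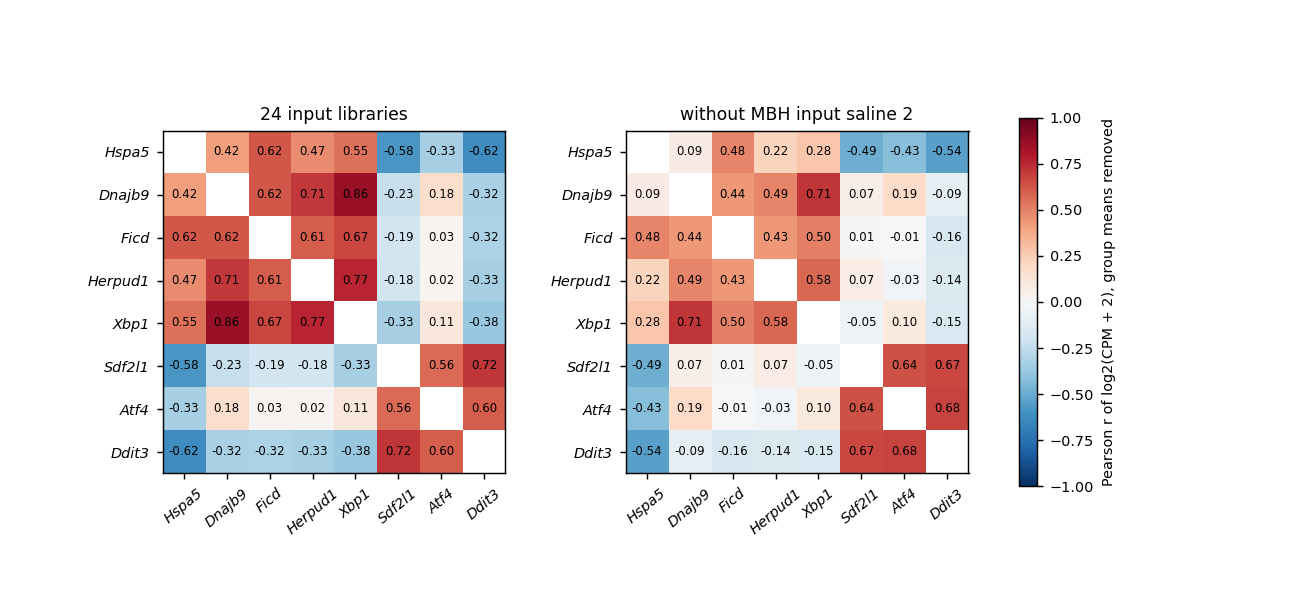
Pearson r between 8 genes over the 24 input libraries (left) and without MBH input saline replicate 2 (right), on log2(CPM + 2) with the 8 group means removed; red is positive and blue negative. The block of Sdf2l1, Atf4 and Ddit3 keeps r of 0.639 or more in the right panel, while the block from Hspa5 to Xbp1 spans 0.0856 to 0.712 there.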

How the data were processed

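RNA of 48 libraries in 16 groups of 3 was amplified with SMART-Seq v4 and made into Nextera XT libraries, per the labels' protocols. GRCm38, HTSeq 0.6.1p1 and TopHat2 2.0.11 are named, without their roles, in the submitters' processing notes; the sources used here do not give annotation or counting options. The authors deposited raw read counts for 38293 genes, of which 36345 matched a symbol in GENCODE M21. No 2 replicates agreed within sampling noise (lowest chi-square per degree of freedom 130.1). Tests were run with edgeR 4.0.16 in R 4.3.3 (TMM, filterByExpr, quasi-likelihood F test, 2-sided), adjusted over all genes tested in each of 21 comparisons and tried on simulated data. IP versus input was fitted on 24 libraries per region, DVC versus MBH on 24 per kind of RNA, their difference on 48 and drugs on 12. Estimates with an SE of 10 or more are not printed. The named-gene rule took all members, and at most 8 further called pathway genes per comparison and direction. Creb3l2 and Mbtps2 were named beyond this limit. Members and lists were chosen with earlier results of these data known. Alternatives were RLE scaling, no filter, DESeq2 1.42.0, limma-voom (limma 3.58.1), a replicate block, the code pairs of the titles as a covariate, leaving out 6 libraries of under 12000 genes, and leaving out each replicate; the contrasts of AC170222 or AC3174 present against absent and the fits without MBH input saline replicate 2 were chosen after seeing the data.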

Additional observations from a re-analysis of the deposited data

Results flagged for a closer look

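The change of Ficd between IP and input differed between the regions, at 8.61 on the log2 scale (DVC minus MBH; edgeR adjusted p = 0.00916, n = 12 libraries per region and kind of RNA), and was picked out because the test of the difference itself passed the threshold. Without the 6 libraries of under 12000 genes it was 8.35 ± 2.58 (adjusted p = 0.0441). The call was lost with limma-voom (3.88, adjusted p = 0.163), with the replicate block (6.15, 0.534), without saline replicate 2 (6.08, 1.0) and without AC3174 replicate 2 (6.27, 0.0815). The cause was not tested.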

How the results depend on the processing

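The number of members called depended on the tool more than on the scaling. In IP versus input 1 member was called in DVC by edgeR, 5 by DESeq2 and 6 by limma-voom, and in MBH 1, 3 and 2; in DVC versus MBH the counts were 1, 4 and 2 for input and 1, 3 and 0 for IP, and in the region difference 1, 2 and 0. Without the filter on low counts both DVC versus MBH counts were 0, and without the libraries of under 12000 genes that for IP was 0. With the replicate block each of these 5 counts was 0 (Atf4 in DVC 0.64, adjusted p = 0.0849). By the protocol each IP was made from the rest of the homogenate that gave the input. The titles do not state that equal numbers share a homogenate. The main fits therefore left the numbers unpaired, and the replicate block paired them. Libraries of the same number correlated at over 0.1 in 0 of 12 pairs of IP and input in each region. They did so in 5 of 12 pairs of DVC and MBH IP, and in 4 of 12 of DVC and MBH input. So weak a correlation between libraries of wide spread cannot exclude pairing. Across treatments 14 of 18 pairs of MBH IP libraries correlated at over 0.1 (median r 0.159). Leaving out each replicate gave 1 to 2 members in IP versus input in DVC, 0 to 2 in MBH, 0 to 2 in DVC versus MBH input, 0 to 1 in IP and 0 to 1 in the region difference. In the drug comparisons DESeq2 called 1 member after AC3174, 1 after AC170222, 1 after the combination and 2 for non-additivity in DVC IP, 1 after AC3174 in DVC input, and 1 after AC170222 and 1 for non-additivity in MBH IP. No member called in either fit changed sign, but 495 of 5069 recomputed member estimates, all uncalled, did. Among all 6710 recomputed values, 38 lost and 35 gained a call and 229 counts moved by over 1.5 times.

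Over all genes, IP versus input in DVC had 3776 calls by edgeR, 6091 by DESeq2, 6412 by limma-voom and 1401 with the block, and in MBH 79, 1846, 493 and 3, with 44 unfiltered, 48 with the code pairs, 363 without the libraries of under 12000 genes and 4 to 587 when a replicate was left out. DVC versus MBH IP had 1015 calls, 3230 by DESeq2, 372 with the block and 418 to 1043 without a replicate, and the region difference 852, 3270, 1623 by limma-voom, 200 with the block, 1665 without the small libraries and 396 to 936 without a replicate. RLE scaling changed the split of higher and lower calls from 28 and 51 to 40 and 44 for IP versus input in MBH and from 453 and 399 to 153 and 491 for the region difference, whose median over all genes moved to -0.33 from 0.03, and in DVC versus MBH IP to -0.05 from 0.11. Further pathway genes called were 18, 33 by DESeq2, 37 by limma-voom and 9 with the block for IP versus input in DVC, and 12, 22, 22 and, without MBH input saline replicate 2, 20 for DVC versus MBH input. With 3 libraries a group and the spread of the IP, changes of single members under drug are not detectable unless large; the causes of the differences between tools were not tested.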

Other observations

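Atf3 in DVC inputs averaged 4.72 ± 3.01 CPM in the 6 libraries with AC170222, alone or in the combination, and 0.398 ± 0.902 CPM in the 6 without it (SD, n = 6 each), and the 3 AC3174 libraries were at 0. The split was drawn because these values separate, so a test on the same values cannot support it. The share of all genes that separate in this way was not counted. When the split was fitted afterwards, edgeR called no member (lowest adjusted p = 0.993), while DESeq2 called Atf3 (6.57, adjusted p = 3.68e-05). In MBH inputs the same split gave 2.87 ± 2.28 CPM with AC170222 and 2.95 ± 2.32 CPM without it. In DVC IP the groups did not separate, with all 3 combination libraries and 1 of 3 AC170222 libraries at 0. Trib3 in DVC inputs averaged 1.83 ± 3.13 CPM with AC3174 and 0.0261 ± 0.0640 CPM without it, with 2 of 6 libraries supplying most of the first mean.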
